A study of Mus musculus with 9 samples.

Results

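The genes described here are those of the major histocompatibility complex (MHC) class II pathway of the mouse. A probe set, a group of short probes whose combined brightness gives 1 signal per array, was taken when its only annotated symbol was H2-Aa, H2-Ab1, H2-Ea, H2-Eb1, H2-DMa, H2-DMb1, H2-Oa, H2-Ob, Cd74 or Ciita. Of these 10 genes 9 had such a probe set. Together they had 19 of the 45037 probe sets that measure transcripts. H2-Aa had 4 of them, H2-Ab1, H2-Ea and Ciita had 3 each, H2-DMa had 2, and H2-Eb1, H2-Oa, H2-Ob and Cd74 had 1 each. H2-DMb1 had none, and 3 probe sets that list a member together with another gene were not used. After the dimmest 40% of probe sets were left out, 16 of the 19 remained for testing, with at least 1 for each of the 9 genes, among 27022 in all. The other 3 were dim overall: H2-DMa 1459872_x_at, H2-Ea 1422892_s_at and H2-Ea 1426202_at.

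RNA came from homogenised whole lung of mice of the strains BL6 (C57/BL6), SV129 and FVB/N. Hypoxic mice had spent 4 weeks at 50 kPa and normoxic mice 4 weeks at 85 kPa, so the control pressure was itself below that at sea level. Each strain had 2 hypoxic arrays and 1 normoxic array, 9 in all, and the labels name no transgene, drug, sex or age. The labels do not say that arrays of a group came from separate mice, so a p-value here measures how far these samples spread, and that spread may be technical. With 1 normoxic array per strain, that array is assumed to vary as the hypoxic ones do.

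Class II molecules are pairs of an alpha and a beta chain that display peptides from taken-up proteins to CD4 T cells. H2-Aa and H2-Ab1 encode the chains of the A molecule, and H2-Ea and H2-Eb1 those of the E molecule. The invariant chain, Cd74, escorts new pairs to the endosome, H2-DM (H2-DMa with an H2-DMb chain) exchanges its remnant for peptide, and H2-DO (H2-Oa with H2-Ob) restrains H2-DM. Ciita is the coactivator that turns these genes on. In the lung, alveolar and interstitial macrophages, dendritic cells, B cells and alveolar type 2 cells make class II molecules. The chains differ in sequence between inbred strains. C57BL/6 and SV129 mice are known to carry the b haplotype of this region and FVB/N mice the q haplotype, and mice of either haplotype lack the E alpha chain at the cell surface. The labels name the strains and not the haplotypes.

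Class II promoters share an X box, bound by the RFX complex, and a Y box, an inverted CCAAT element bound by NF-Y, at a nearly fixed distance. The promoter table from RefSeq (mouse build GRCm38.p6, 250 bases before to 50 bases after each gene start) held 6 of the 10 genes in 7 windows. An X core, written CNNGNAAC, was looked for on the gene's strand with a Y box, GATTGG, starting 25 to 36 bases after the start of the X core. This pattern was spelled after the members' windows had been read, so its presence in them is a description. It was found for 5 genes, including H2-DMb1, which has no probe set of its own here. It stood in 23 of all 32851 windows (0.07%), and in 42 (0.128%) when either strand was allowed. The Y box alone, on either strand, stood in 16.1% of windows and the X core alone in 39.1%, and neither motif overlaps the other in the lines below. These stretches of 54 to 57 bases are shown because they hold the pair in the 5 genes where it was found. Capitals mark the X core and then the Y box.
H2-Aa (chr17:34287859-34287915, minus strand): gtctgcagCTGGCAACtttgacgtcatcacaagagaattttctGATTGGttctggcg
H2-Eb1 (chr17:34305765-34305820, plus strand): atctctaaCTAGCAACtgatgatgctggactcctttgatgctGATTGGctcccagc
H2-DMb1 (chr17:34153086-34153142, plus strand): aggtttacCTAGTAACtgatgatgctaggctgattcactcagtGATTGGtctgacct
H2-Oa (chr17:34092292-34092348, plus strand): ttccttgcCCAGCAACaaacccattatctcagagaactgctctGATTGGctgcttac
H2-Ob (chr17:34238807-34238860, plus strand): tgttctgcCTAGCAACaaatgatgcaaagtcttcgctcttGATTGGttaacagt
The X core began 84 bases before the gene start in H2-Aa, 94 in H2-Eb1, 97 in H2-DMb1, 79 in H2-Oa and 90 in H2-Ob. From the start of the X core to the start of the Y box there were 35 bases in H2-Aa, H2-DMb1 and H2-Oa, 34 in H2-Eb1 and 32 in H2-Ob. The pair was not in the 2 windows of H2-DMa, of which 1 held the Y box letters. H2-Ab1, H2-Ea and Ciita, which had no window, and Cd74, which was not looked up, are named only.

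Markers of the cells that carry class II molecules were present on every array. The type 2 cell gene Sftpc read 19124 to 36895, the B cell gene Ms4a1 372 to 1149 and the dendritic cell gene Itgax 597 to 1021. On 2 arrays, hypoxic BL6 array 2 and normoxic FVB/N, kidney transcripts were bright: Umod, the kidney gene for uromodulin, read 12401 and 18049.6 there and 2.83 to 115 on the other 7. The normoxic FVB/N array also carried transcripts of fast muscle, with Acta1, a muscle actin, at 9541 against 30.2 to 176 elsewhere. The brown fat gene Ucp1 was not raised there, at 8.27 against 2.28 to 13.4. It lay farther from the 2 hypoxic arrays of its strain than any other normoxic array from its own, with median absolute log2 differences of 0.44 and 0.47 over all tested probe sets. The normoxic BL6 and SV129 arrays differed from each other by 0.22, close to the 0.21 between the 2 hypoxic BL6 arrays, and 11 of the 16 member probe sets lay within 0.2 of each other on them.

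H2-Eb1, H2-Aa and H2-Ea stood apart in FVB/N, while the other 6 genes gave no strain difference that passed. Of 16 member probe sets 5 passed between BL6 and FVB/N, 4 higher in BL6 and 1 lower (limma, Benjamini-Hochberg adjusted p below 0.05), where 2.07% of all tested probe sets passed. Between FVB/N and SV129 6 passed, 2 higher in FVB/N and 4 lower, against 2.89% of all. H2-Ea 1422891_at is in both counts, although it passed the filter on dim probe sets only through the FVB/N arrays, where it is high. Of the 15 others 4 passed between BL6 and FVB/N and 5 between FVB/N and SV129, all of H2-Eb1 or H2-Aa. Between BL6 and SV129 none passed in limma, against 2.51% of all, and 1 had an unadjusted p below 0.05. The median log2 difference of the 16 was 0.40 for BL6 minus FVB/N against −0.01 over all tested probe sets, 0.27 against −0.03 for BL6 minus SV129, and −0.11 against −0.03 for FVB/N minus SV129. All 3 FVB/N arrays lay below the other 6 for 4 member probe sets (25%) and above them for 2 (12.5%), against 3.62% and 1.73% of all tested probe sets. The 2 above were H2-Aa 1452431_s_at and H2-Ea 1422891_at. For H2-Ea this follows from how it passed the filter, so it adds nothing to the share. On the normalised log2 scale every BL6 array lay above every SV129 array for 7 of the 16 (43.8%), against 10.2% of all. None of the 16 had every BL6 array below, against 11.5% of all. The 7 belong to H2-Ab1, H2-Aa, H2-Eb1 and H2-DMa only, and some share a gene, so the share does not count separate genes. The nearest arrays were closest for H2-Aa 1435290_x_at, at 13.633 (normoxic BL6) and 13.622 (normoxic SV129). They were farthest apart for H2-Ab1 1425477_x_at, at 11.86 (hypoxic BL6 array 2) and 11.73 (normoxic SV129).

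H2-Eb1, the E beta chain, read far lower in FVB/N than in the other strains through its only probe set, 1417025_at. How well that probe set matches each strain's sequence was not tested and cannot be told apart from strain. Its values are thus levels of the probe set and not of the gene across strains. Its signal was 10577 and 10380.0 on the hypoxic BL6 arrays and 8865 on the normoxic one. The SV129 arrays read 8025 and 7022 in hypoxia and 8459.85 in normoxia. The FVB/N arrays read 367 and 541 in hypoxia and 316 in normoxia. All 3 FVB/N arrays thus lay below every other array, and the highest of them was 13.0-fold below the lowest of the rest. The log2 level was 13.32 ± 0.09 in BL6, 8.72 ± 0.34 in FVB/N and 12.96 ± 0.21 in SV129 (SD, n = 3 arrays each). BL6 exceeded FVB/N by 4.59 ± 0.19 on the log2 scale (SE; 24.1-fold; limma, adjusted p = 1.11e-05). FVB/N lay below SV129 by 18.8-fold (−4.23 ± 0.19, limma, adjusted p = 1.07e-05). Every BL6 array lay above every SV129 array, but this difference, 0.36 ± 0.19, did not pass (limma, adjusted p = 0.404). The difference between BL6 and FVB/N was 4.50 among hypoxic and 4.77 among normoxic arrays. With these 2 kidney-bearing arrays left out it was 4.36.

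H2-Ea, the E alpha chain gene, ran the other way. Probe set 1422891_at read 878 and 975 on the hypoxic FVB/N arrays and 262 on the normoxic one. On the 6 BL6 and SV129 arrays it read 11.4 to 29.3, so the lowest FVB/N array stood 8.94-fold above the highest of the others. Its call in the 9-array fit follows in part from the filter. With no filter on dim probe sets it passed too, for BL6 minus FVB/N (−4.23, limma, adjusted p = 0.000515) and FVB/N minus SV129 (4.24, limma, adjusted p = 0.000551). The size of these differences is set by the pseudocount, since BL6 and SV129 were dim: BL6 minus FVB/N was −5.06 with a pseudocount of 1 and −3.07 with 64. The second probe set, 1422892_s_at, read 337, 299 and 288 in FVB/N and 3.64 to 29.0 elsewhere. It was too dim overall for the filter on the 9 arrays, so its values are given with no test. The third, 1426202_at, read 2.93 to 33.9 over all arrays, with the strains overlapping, so it gave no level for H2-Ea. RefSeq lists H2-Ea, in the C57BL/6 reference genome, as a transcribed pseudogene.

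H2-Aa, the A alpha chain, gave directions that depended on the probe set. Probe set 1438858_x_at read 12183, 8482 and 9137 in BL6, 8279, 14402 and 9153 in SV129, and 522, 669 and 755 in FVB/N. It lay 15.2-fold higher in BL6 than in FVB/N (3.93 ± 0.228, limma, adjusted p = 5.86e-05) and 15.7-fold lower in FVB/N than in SV129 (−3.97, limma, adjusted p = 6.11e-05). A dimmer probe set, 1443783_x_at, read 257 to 757 in BL6 and SV129 and 18.0 to 46.3 in FVB/N. It lay 8.44-fold higher in BL6 than in FVB/N (limma, adjusted p = 0.000462) and 9.03-fold lower in FVB/N than in SV129 (limma, adjusted p = 0.000446). In both of these probe sets the FVB/N arrays stood apart from the other 6.

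The brightest H2-Aa probe set, 1435290_x_at, showed a smaller difference of the same sign. It read 14815, 15927 and 11674.5 in BL6, 13238, 12755 and 11289.7 in SV129, and 7303, 9039 and 5863 in FVB/N. BL6 lay 2.01-fold above FVB/N (1.01 ± 0.142, limma, adjusted p = 0.00644), and short of the threshold without hypoxic BL6 array 5 (adjusted p = 0.0522). FVB/N lay 1.74-fold below SV129 (limma, adjusted p = 0.0192). This did not pass with the 2 kidney-bearing arrays left out (−0.66, adjusted p = 0.0534). Nor did it pass without hypoxic BL6 array 5 (0.0524), hypoxic FVB/N array 2 (0.0804), hypoxic SV129 array 2 (0.0551) or the normoxic SV129 array (0.106), among the 6 hypoxic arrays alone (−0.64, adjusted p = 0.0669), with eBayes without a trend (0.0601) or with the array number as a replicate block (0.0729). The remaining probe set, 1452431_s_at, was higher in FVB/N: 15945, 18155 and 12429 against 6016, 6465 and 6432 in BL6 and 4824, 2701 and 5648 in SV129. FVB/N exceeded SV129 by 3.48-fold (1.80, limma, adjusted p = 0.00852). Its excess over BL6, 2.30-fold, did not pass on 9 arrays (−1.20 ± 0.27, limma, adjusted p = 0.0647) and passed among the 6 hypoxic arrays alone (−1.45, limma, adjusted p = 0.040). It also passed without hypoxic SV129 array 5 (0.0128), the normoxic FVB/N array (0.0153) or the normoxic SV129 array (0.0486). The array maker's suffix _x_at marks probe sets that may also bind other transcripts, and _s_at those shared by several transcripts. Strain, haplotype and how well each probe set matches a strain's sequence cannot be told apart here, so a signal for H2-Aa is a level of that probe set and not of the gene across strains.

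**Figure D1:**
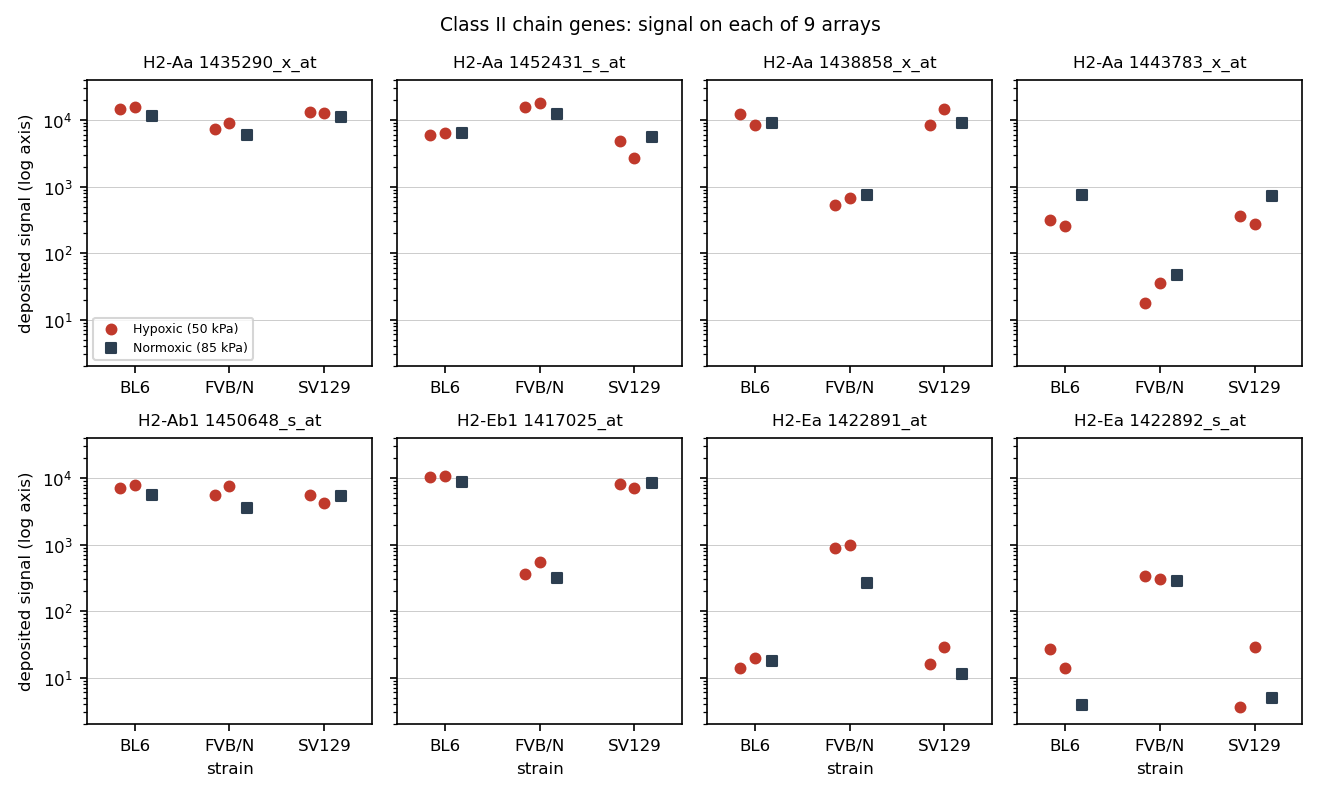
Deposited signal (log axis) of 8 probe sets of the A and E chain genes on each of 9 arrays, by strain. Circles are hypoxic arrays (50 kPa) and squares normoxic ones (85 kPa), and each point is 1 array. H2-Eb1 and 3 H2-Aa probe sets are lower on all 3 FVB/N arrays, while H2-Aa 1452431_s_at and both H2-Ea probe sets shown are higher.

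H2-Ab1, the A beta chain, gave no strain difference that passed with any of its 3 probe sets. The brightest, 1450648_s_at, read 7202 and 7979.5 on the hypoxic BL6 arrays and 5656 on the normoxic one. In FVB/N it read 5589.8, 7603 and 3547, and in SV129 5549, 4193 and 5308. FVB/N overlapped both other strains, and every BL6 array lay above every SV129 array, by as little as 5656 against 5549. BL6 minus FVB/N was 0.40 ± 0.235 (limma, adjusted p = 0.592) and FVB/N minus SV129 0.08 ± 0.235 (limma, adjusted p = 0.893). Probe set 1451721_a_at gave 0.41 for BL6 minus FVB/N (limma, adjusted p = 0.681). Probe set 1425477_x_at gave −0.31 (limma, adjusted p = 0.798), the opposite sign. For FVB/N minus SV129 the latter gave 0.96 ± 0.311 (limma, adjusted p = 0.165).

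Cd74, the invariant chain, was among the brightest probe sets on the arrays, at the 99.7th percentile of mean level. It read 17785.5, 18262 and 14671 in BL6, 16939.7, 16626 and 13052 in FVB/N, and 19249, 15169 and 14273 in SV129. The highest array stood 1.47-fold above the lowest, and the strains overlapped. BL6 minus FVB/N was 0.22 ± 0.125 (limma, adjusted p = 0.564). The order of the strain means, BL6 at 14.08 ± 0.06, SV129 at 13.98 ± 0.15 and FVB/N at 13.86 ± 0.21 (log2, SD, n = 3 arrays each), had no neighbours that differed beyond their spread.

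H2-DMa, the alpha chain of the peptide exchanger, read 2969.7, 2824 and 1863 in BL6, 1988, 2519.8 and 1178 in FVB/N, and 1735, 1446 and 1554 in SV129. FVB/N overlapped both other strains, and every BL6 array lay above every SV129 array. BL6 minus SV129 was 0.68 ± 0.203, the only member with an unadjusted p below 0.05 in that comparison, and it did not pass (limma, adjusted p = 0.142). BL6 minus FVB/N was 0.47 ± 0.203 (limma, adjusted p = 0.396). The dimmer H2-DMa probe set, 1459872_x_at, read 28.9 to 101.

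H2-Oa and H2-Ob, the chains of the H2-DM restrainer made mainly by B cells, were expressed at moderate signals. H2-Oa read 236 to 450.4 over the 9 arrays and H2-Ob 224 to 705. For both the normoxic FVB/N array was the lowest, and the normoxic BL6 and SV129 arrays were the highest. No strain difference of either passed: BL6 minus FVB/N for H2-Ob was 0.71 ± 0.317 (limma, adjusted p = 0.428). That difference was 1.50 among the normoxic arrays and 0.31 among the hypoxic ones.

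Ciita, the coactivator of the pathway, gave dim signals: 98.5 to 196 for 1421210_at, 52.9 to 137 for 1421211_a_at and 29.8 to 82.6 for 1447075_at. The strains overlapped in the brighter pair, and in 1447075_at every BL6 array lay above every FVB/N array (68.0 against 61.0 at the nearest). For 1421210_at BL6 minus FVB/N was 0.06 ± 0.279 (limma, adjusted p = 0.968), and for 1421211_a_at it was 0.01 ± 0.262 (limma, adjusted p = 0.997). No strain comparison of a Ciita probe set passed.

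**Figure D2:**
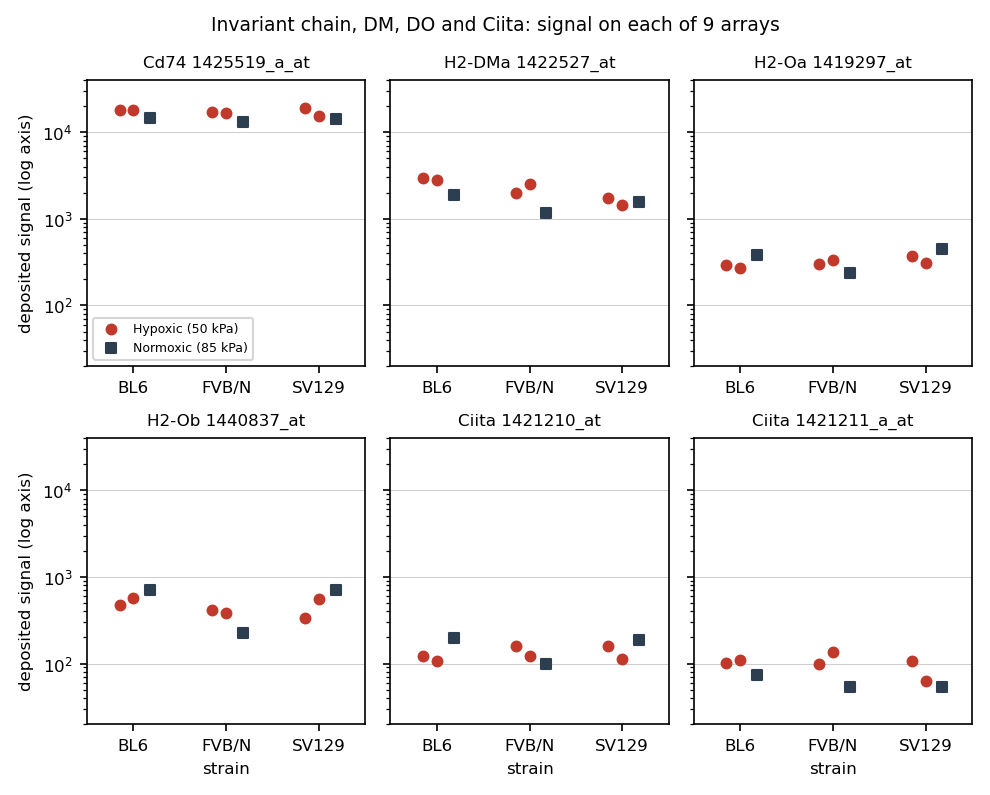
Deposited signal (log axis) of Cd74, H2-DMa, H2-Oa, H2-Ob and 2 Ciita probe sets on each of 9 arrays, by strain. Circles are hypoxic arrays and squares normoxic ones, each point 1 array. In none of the 6 panels does a strain stand apart from both others, from the dim Ciita signals to Cd74 at 13052 to 19249.

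**Figure D3:**
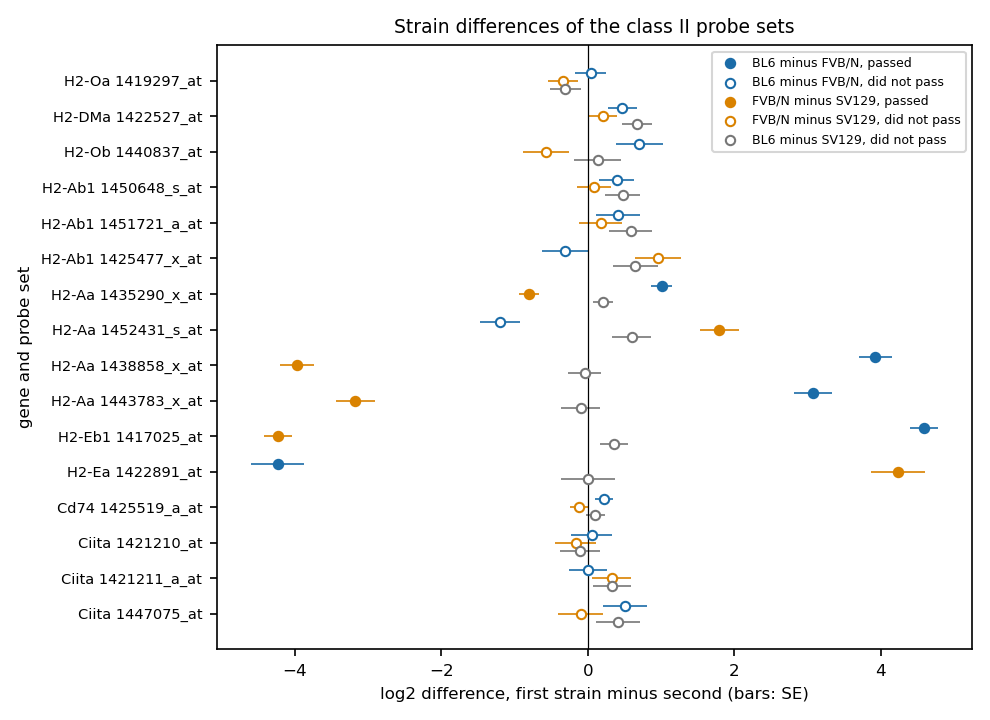
Log2 difference between strains for the 16 tested class II probe sets, first strain minus second, with bars of 1 SE from limma. Filled points passed an adjusted p of 0.05 and open points did not. The filled points belong to H2-Aa, H2-Eb1 and H2-Ea, and those of BL6 minus SV129 are all open.

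In the class II list as a whole hypoxia moved no probe set past the threshold. Across strains 0 of 16 passed in limma, against 3.76% of all tested probe sets, and 4 had an unadjusted p below 0.05. The median log2 difference, hypoxic minus normoxic, was 0.10 for the 16 and 0.04 over all, and 9 of the 16 were above 0. With median centring of the arrays, and no quantile normalization, 12 of the 16 lay above 0.

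The lowest adjusted p for hypoxia was that of H2-Aa 1443783_x_at (−0.97 ± 0.229, limma, adjusted p = 0.053). It read 319 and 257 in hypoxic and 757 in normoxic BL6 lungs, 361 and 277 against 727 in SV129, and 18.0 and 35.5 against 46.3 in FVB/N. Both hypoxic arrays thus lay below the normoxic one in each strain. Without the normoxic FVB/N array the difference was −1.25 and passed (limma, adjusted p = 0.025). With both kidney-bearing arrays left out it was −1.29 and did not pass. In 13 of the 21 alternatives that tested this probe set it did not pass. The other 3 H2-Aa probe sets did not follow it, with 0.26 ± 0.123 for 1435290_x_at (limma, adjusted p = 0.258) and −0.12 for 1452431_s_at. Ciita 1421211_a_at lay above its normoxic array on both hypoxic arrays in each strain, at 102 and 109.7 against 74.4 in BL6, 98.6 and 137 against 54.1 in FVB/N, and 107 and 63.1 against 52.9 in SV129 (0.72 ± 0.227, limma, adjusted p = 0.108). Ciita 1421210_at, of the same gene, had a difference of −0.16. H2-DMa gave 0.51 ± 0.176 (limma, adjusted p = 0.136), and 0.26 with the 2 kidney-bearing arrays left out (limma, adjusted p = 0.578). For the brighter genes the values were 0.38 ± 0.204 for H2-Ab1 1450648_s_at, 0.12 ± 0.108 for Cd74 and 0.09 ± 0.164 for H2-Eb1 (limma, adjusted p = 0.309, 0.566 and 0.783).

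Within FVB/N 14 of the 16 probe sets were higher on both hypoxic arrays than on the normoxic one, and 2 were lower on both. Over all tested probe sets these shares were 51.4% and 31.3%. None of the 16 passed in limma, against 6.8% of all, and 6 had an unadjusted p below 0.05. The median was 0.61 for the 16 and 0.17 over all. The largest differences were those of H2-Ea 1422891_at (1.67 ± 0.418, limma, adjusted p = 0.0564), Ciita 1421211_a_at (1.04, limma, adjusted p = 0.166), H2-Ab1 1450648_s_at (0.93 ± 0.245, limma, adjusted p = 0.0648) and H2-DMa (0.87 ± 0.237, limma, adjusted p = 0.0702). H2-Ea 1422892_s_at read 337 and 299 against 288, so the 2 H2-Ea probe sets differed in size. All these values rest on 1 normoxic FVB/N array, which carried kidney and fast muscle transcripts. On that array the B cell list mean was 8.08 against 8.51 and 8.88 on the hypoxic FVB/N arrays, and the dendritic cell list mean 7.527 against 8.002 and 7.989. In this comparison the B cell genes Fcer2a (1.52) and Cd79b (1.06), the dendritic cell gene Zbtb46 (1.60), Cd8b1 of T cells (1.20), Sftpd of type 2 cells (0.75) and the endothelial Tek (1.17), Emcn (1.51) and Cldn5 (1.02) rose past the threshold. Marco fell (−1.66), as did 4 of 12 tested kidney genes (Slc22a6, Pck1, Slc5a2 and Lrp2) and the 4 tested fast muscle genes (Acta1, Tnnt3, Mylpf and Ckm). With eBayes without a trend 5 of all tested probe sets passed in this comparison (0.0185%). At most 5 of the genes named here can have passed in that fit. Of these genes Emcn also rose in hypoxia across strains (1.43, limma, adjusted p = 0.00621). The part of these in the class II values was not tested.

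In BL6 8 probe sets were higher on both hypoxic arrays, 6 lower on both and 2 split, and in SV129 the counts were 2, 10 and 4. The shares over all tested probe sets were 40.6% above and 37.8% below in BL6, and 32.8% and 30.4% in SV129. None passed in limma in BL6 (0.0148% of all; 2 members with an unadjusted p below 0.05) or SV129 (0% of all; 1 member with an unadjusted p below 0.05). The member medians were 0.61 in FVB/N and −0.34 in SV129. The test of whether the hypoxia effect differed between strains passed for none of the 16 (limma moderated F test, 0% of all tested probe sets), and 1 had an unadjusted p below 0.05. That was H2-Ab1 1450648_s_at, with 0.41 ± 0.245 in BL6, 0.93 ± 0.245 in FVB/N and −0.19 ± 0.245 in SV129 (limma moderated F test, adjusted p = 0.368). H2-DMa was 0.63 ± 0.237 in BL6 and 0.03 ± 0.237 in SV129, and Cd74 0.10 ± 0.144 and −0.10 ± 0.144.

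**Figure D4:**
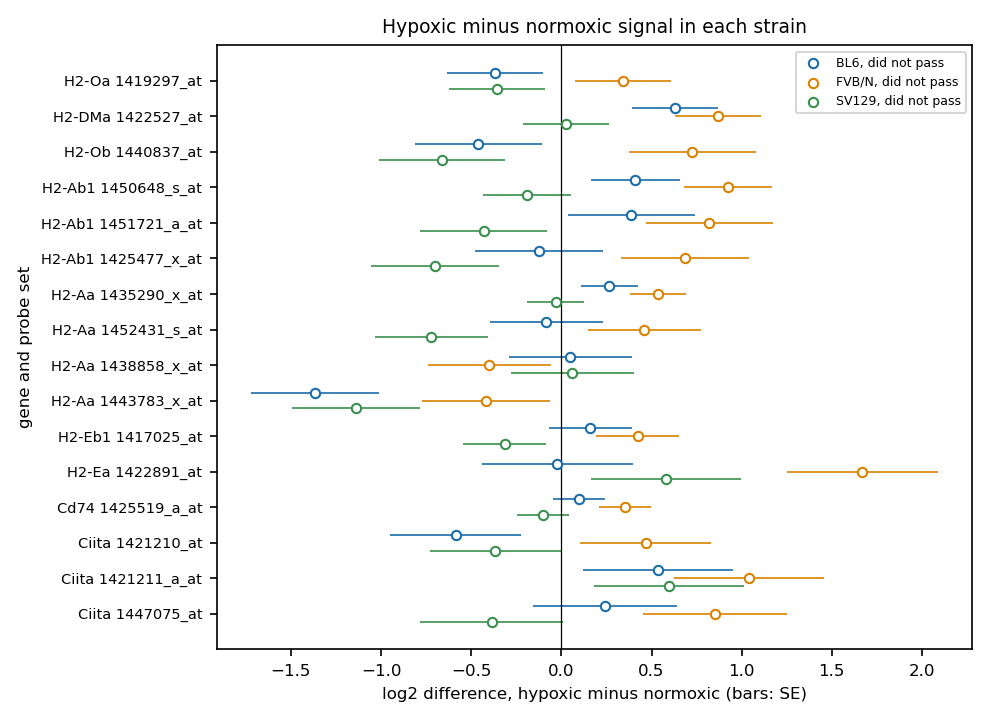
Log2 difference, hypoxic minus normoxic, in each strain for the 16 tested class II probe sets, with bars of 1 SE from limma. Open points did not pass an adjusted p of 0.05, and all points are open. Most FVB/N points lie right of 0 and most SV129 points left of it, with 1 normoxic array behind each.

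The genes that control or serve class II were then read from lists of the wider pathway, through the brightest probe set of each gene. Among class II regulators, which include the RFX subunits, NF-Y subunits and interferon regulatory factors, 16 of 20 were tested. None passed for hypoxia across strains or between any strains. Rfx5, an RFX subunit, read 605 to 1291 over the 9 arrays, Rfxank 219.6 to 443 and Rfxap 301 to 415. For hypoxia within FVB/N 2 of the 16 rose, where 6.8% of all tested probe sets passed. These were Irf1, an interferon-induced factor, by 1.22 ± 0.24 (limma, adjusted p = 0.0336) and Irf4, a factor of B and dendritic cells, by 2.12 ± 0.349 (limma, adjusted p = 0.0276). Irf4 read 10.5 on the normoxic FVB/N array and 82.4 to 199.6 on the other 8, so its change rests on that array. Irf1 was also lowest on the normoxic FVB/N array, at 1864 against 2137 to 5149 on the other 8.

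Of 14 tested genes of antigen processing and traffic, Ctss, the protease that trims the invariant chain, was higher in BL6 than in FVB/N (0.94 ± 0.157, limma, adjusted p = 0.0157) and SV129 (0.72, limma, adjusted p = 0.0481). It read 5989, 7209 and 7237 in BL6 and 3033 to 4685 elsewhere, so BL6 did not overlap the other strains. Marchf8, a ligase that can take class II from the surface, fell in hypoxia across strains by 0.82 ± 0.164 on the log2 scale (limma, adjusted p = 0.0342). In that comparison 3.76% of all tested probe sets passed. Without the normoxic SV129 array 3 of all passed, and without the normoxic BL6 array 11, so such calls lean on single normoxic arrays. Lgmn, an endosomal protease that is also abundant in kidney, fell within FVB/N (−1.48, limma, adjusted p = 0.0442), from 6862 on the normoxic array to 2012 and 2678. None of the others passed in a comparison.

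Of 8 tested costimulation genes and class II ligands, Cd28 was lower in BL6 than in SV129 (−1.24, limma, adjusted p = 0.0439). Cd40, the receptor for T cell help, rose within FVB/N in hypoxia (1.35 ± 0.261, limma, adjusted p = 0.0331), reading 851 and 1042 against 337. The other hypoxic arrays read 524 to 707 and the other normoxic arrays 467 and 483.

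Of the marker lists of cells that carry class II, that of macrophages was lowest in FVB/N and that of dendritic cells lowest in SV129. The type 2 cell list overlapped between strains. In whole lung, fewer cells of a type and less RNA per cell cannot be told apart. The macrophage list (13 genes) averaged 9.15 to 9.16 on the log2 scale on the 3 FVB/N arrays and 9.80 to 10.30 on the other 6. Of its 13 genes 5 were higher in BL6 than in FVB/N, where 2.07% of all tested probe sets passed. These were Marco (2.51, limma, adjusted p = 0.00417), Chil3 (2.13, limma, adjusted p = 0.000121), Fcgr1 (1.14), Cd68 (1.02) and Mrc1 (0.88). Marco, Chil3 and Mrc1 were also lower in FVB/N than in SV129 (−4.78, −2.32 and −1.23), where 2.89% of all passed. Marco was lower in BL6 than in SV129 (−2.27). The dendritic cell list (12 genes) averaged 7.527 to 8.002 in FVB/N, 7.703 to 8.048 in BL6 and 7.175 to 7.425 in SV129, so FVB/N was not the lowest. In that list Cd209a was lower in SV129 than in BL6 (2.59, limma, adjusted p = 0.00192) and FVB/N. The B cell list (14 genes) averaged 8.08 to 8.88 in FVB/N, 8.73 to 8.87 in BL6 and 8.13 to 8.21 in SV129. The type 2 cell list (9 genes) averaged 13.28 to 13.48 in FVB/N and 13.43 to 13.73 in the other strains, with no gene past the threshold between strains. Fcer2a, a B cell receptor for IgE, was higher in FVB/N than in SV129 (1.32, limma, adjusted p = 0.0399). The T cell and endothelial lists had 0 of 8 and 0 of 10 genes past the threshold between BL6 and FVB/N (limma), and the T cell chemokine Ccl5 was lower in SV129 than in BL6 (1.40) and FVB/N (1.42). The part of the lower macrophage list in the class II differences was not tested.

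**Figure D5:**
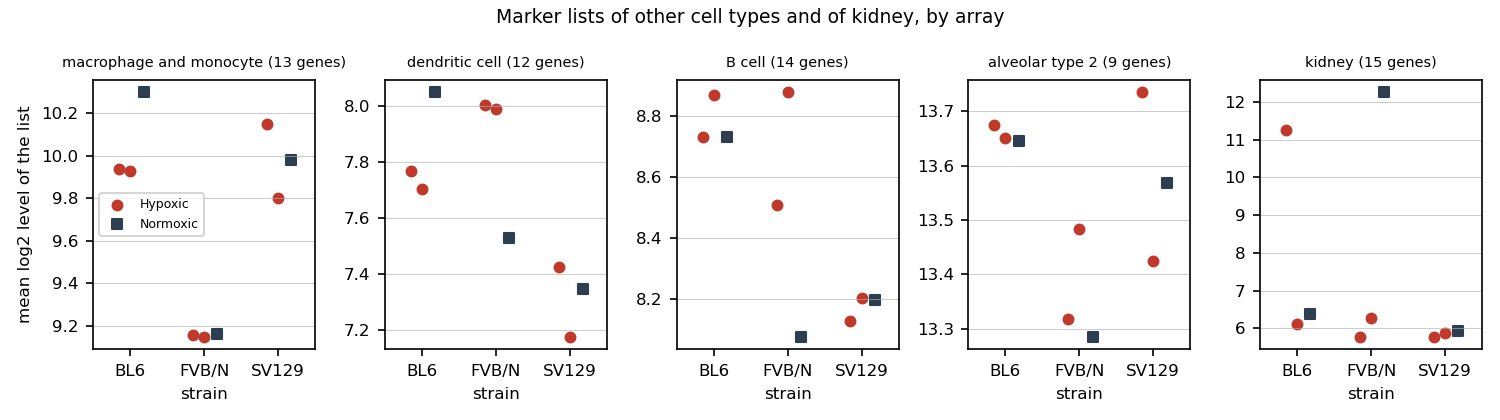
Mean log2 level of the marker lists of macrophages, dendritic cells, B cells and type 2 cells and of kidney on each of 9 arrays, by strain. Circles are hypoxic arrays and squares normoxic ones, each point 1 array, and each panel has its own scale. The macrophage list is lowest on the 3 FVB/N arrays, and the kidney list is high on hypoxic BL6 array 2 (11.24) and the normoxic FVB/N array (12.25).

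The strain differences were not shared by every gene of the region. Along the chromosome in RefSeq's order, H2-Oa, H2-DMa, H2-Ob, H2-Ab1, H2-Aa, H2-Eb1 and H2-Ea follow each other with other genes between them. Of these 7, H2-Aa, H2-Eb1 and H2-Ea, which stand at one end, had a probe set past the threshold between FVB/N and both other strains, with the limit given for H2-Ea above. The stretch from H2-Oa to H2-Ea was chosen after these values were seen. It also held 6 genes that are not members and had a probe set past the filter. They had 11 tested probe sets, of which 3 passed between BL6 and FVB/N and 2 between FVB/N and SV129. Both probe sets in common were of H2-DMb2, the second H2-DM beta chain gene. H2-DMb2 1443686_at read 714, 868 and 604 in BL6, 878, 1259 and 532 in SV129, and 25.7, 33.5 and 69.9 in FVB/N (BL6 minus FVB/N 3.66, limma, adjusted p = 0.000748). H2-DMb2 1443687_x_at gave 3.29 (limma, adjusted p = 0.000215), while 1419744_at of the same gene gave 0.66 and did not pass (limma, adjusted p = 0.418). As with H2-Aa, probe sets of 1 gene thus gave unlike strain differences. The third probe set to pass was that of Tap1, a class I peptide transporter (BL6 minus FVB/N 0.85, limma, adjusted p = 0.0386). H2-Eb2 was too dim for the filter and was not tested. Its probe set 1440907_at read 4.57, 8.67 and 5.98 in FVB/N and 48.9 to 116 in the other strains.

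Other genes were ranked by Pearson's r over the 9 arrays with a class II reference. The reference was the mean centred log2 level of H2-Aa 1435290_x_at, H2-Ab1 1450648_s_at, H2-Eb1 and Cd74, without H2-Ea, which ran the other way. The levels were not scaled to equal spread. H2-Eb1, with an SD of 2.22 over the 9 arrays, thus outweighed H2-Aa (0.50), H2-Ab1 (0.40) and Cd74 (0.16), and the ranking mostly records likeness to H2-Eb1. That mean was −1.31 on the normoxic and −0.92 and −0.59 on the hypoxic FVB/N arrays, and 0.16 to 0.71 on the other 6, so a high r mostly records low values in FVB/N. Among 12886 genes the most alike were Ppp1r14c (r = 0.983), Retnla (0.980), Inhbb (0.974), Gprc5a (0.973) and Gm19439 (0.971), followed by Vwa5a, Mlc1, D3Ertd751e, Spg21 and Zfp267 down to 0.963. With each strain's mean removed, r was 0.849 for Retnla, 0.811 for Ppp1r14c and 0.585 to 0.689 for the others. All points share the arrays and their scaling, and the values are descriptions.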

How the data were processed

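For 9 arrays of biotin-labelled whole lung RNA, the deposited table gives a linear intensity for each probe set. By the values themselves, the authors had scaled each array to a mean of 500.0 after 2% of probe sets at each end were left out. Which software made the signals is not given in sources used here. Another 12 arrays that the series' design text mentions were not analysed here. Groups came from the array titles, and pressure and weeks from the descriptions.

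Signals were taken as log2(signal + 16), so folds understate the change of dim probe sets, and quantile normalized. Of 45101 probe sets, 64 controls and the dimmest 40% by mean level were left out. Symbols came from a platform annotation table: 34945 probe sets had 1 symbol, 932 several and 9160 none. limma 3.58.1 (R 4.3.3) with an intensity trend was fitted over all 27022 probe sets, with strain and condition as terms (5 residual degrees of freedom), or with 6 groups for hypoxia within a strain and its interaction (3). p-values were adjusted by Benjamini-Hochberg over all probe sets, and the threshold was 0.05. Precision is limited by how few arrays there are. The scripts were tested on simulated data.

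All member probe sets were named or counted. Of the 11 gene lists (144 genes, 134 matched), genes past the threshold are named, and otherwise at most 4 by role. The members and lists were chosen with earlier results of these data known. Alternatives changed the normalization, pseudocount, filter, variance model, arrays and covariates.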

Additional observations from a re-analysis of the deposited data

How the results depend on the processing

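Both differences from FVB/N passed in limma in each alternative that tested the probe set: 24 of 24 for H2-Eb1 (BL6 minus FVB/N 4.36 to 4.82), 23 of 23 for H2-Aa 1438858_x_at, 22 of 22 for H2-Aa 1443783_x_at and 21 of 21 for H2-Ea 1422891_at (−5.06 to −3.07). The last was not tested with the dimmest 60% left out or without hypoxic FVB/N array 2 or 6, where the filter removed it. Where a filter was used, it was tested only because its FVB/N arrays are high, so its count is no separate support. No result changed sign past the threshold. For BL6 against FVB/N 5 probe sets passed, 3 with the dimmest 60% left out (11 members tested) and 3 with 1 probe set per gene (9 tested). For FVB/N against SV129 6 passed, and 3 with 1 probe set per gene. For BL6 against SV129 0 passed, and 1 with array weights, where 4.78% of all tested probe sets passed. Leaving out 1 array gave 4 to 7 for each comparison with FVB/N. For hypoxia across strains 0 passed. Median centring, the authors' scaling alone, robust eBayes, the kidney marker level as a covariate and the model with 6 groups gave 1 each. In these, 3.83% to 7.14% of all tested probe sets passed. Array weights gave 2, against 6.92% of all. The array number as a replicate block gave 3 (H2-Aa 1443783_x_at, H2-DMa and Ciita 1421211_a_at), where 20.7% of all passed, so these 3 do not mark out the members. Every normoxic array and no hypoxic one bears the number 1, so number and pressure cannot be told apart in that fit. The block was random for hypoxia and fixed, in place of condition, between strains. Leaving out 1 array gave 0 to 1. For hypoxia in FVB/N 0 passed. Median centring, the authors' scaling alone and a pseudocount of 64 gave 1 each, where 6.53% to 6.99% of all tested probe sets passed. Array weights gave 3, against 11.8% of all. The calls over all probe sets fell from 1837 to 5 (0.0185%) with eBayes without a trend, so they depend on the variance model. Without 1 hypoxic array, of any strain, a group is left with 1 array and the spread shared by all groups rests on fewer pairs. Counts of those fits are thus not given for the comparisons within strains. For hypoxia in BL6, in SV129 and the interaction, 0 passed in every other alternative run. The causes were not tested. Median centring raised the share of hypoxia calls that were higher from 51.7% to 71.3% over all probe sets, and the calls from 1016 to 1440. It moved the median of all probe sets for hypoxia in BL6 from 0.02 to 0.13. The differences between the 2 hypoxic arrays of a strain were compared between strains over all tested probe sets. Their r was −0.0422 between BL6 and SV129, −0.026 between BL6 and FVB/N and −0.188 between SV129 and FVB/N. No shared deviation by array number was seen. With 1 difference per strain, and kidney transcripts on hypoxic BL6 array 2, these values cannot tell whether the number pairs arrays. In the block fit, H2-Aa 1452431_s_at lost its difference between FVB/N and SV129 (1.49, adjusted p = 0.0989). The dim signals of Ciita and of H2-Ea outside FVB/N limit what can be read from their folds.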
